A study of Mus musculus with 15 samples.

Results

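The translation initiation factor genes were followed in RNA from sorted mouse T cells that carry or lack a working Hpgd gene. They are the genes whose symbol starts with Eif followed by a digit from 1 to 6, leaving out the 4 Eif2ak kinase genes and the sex-linked pair Eif2s3x and Eif2s3y, and came to 48 of the 17594 genes in the table. All 48 passed the filter on low values, so none is missing from the tests. The KO animals had a conditional Hpgd knockout crossed to a Foxp3-Cre-YFP driver, which is active in cells that express Foxp3, against wild-type (WT) control animals. All were on a C57BL/6 background, and age and sex are not in the labels. Regulatory T cells (Treg, which express Foxp3) and Tconv, short for conventional T cells of the CD4+ lineage, were sorted from spleen, which gave 4 Treg KO, 4 Treg WT, 4 Tconv KO and 3 Tconv WT libraries. Hpgd encodes an enzyme that inactivates prostaglandin E2 by oxidising it, and the comparisons ask what its loss in Foxp3+ cells changes in those cells and in Tconv.

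Initiation factors bring the small ribosomal subunit, the initiator tRNA and an mRNA together and place them at a start codon. The eIF4 factors bind the cap of the mRNA and unwind its leader, eIF3 holds the small subunit, eIF2 delivers the initiator tRNA and is recharged by eIF2B, and eIF5B joins the large subunit. In T cells the pathway is known as a target of mTOR signalling, which releases the cap-binding protein eIF4E from its 4E-binding proteins when a cell is activated.

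Libraries held 2.64 to 4.71 M reads in Treg KO, 6.43 to 10.0 M in Treg WT, 2.95 to 10.3 M in Tconv KO and 6.60 to 11.1 M in Tconv WT, so depth moved with genotype in Treg without overlap. Hpgd itself had 0 reads in the 4 Treg KO libraries, 1 read among 33.4 M reads in Treg WT, and 0 in both Tconv groups, and its loss was therefore not detectable at this depth. A count of 0 allows up to 0.193 reads per M in Treg KO, 0.139 in Tconv KO and 0.114 in Tconv WT, by counting error only. Foxp3 lay between 3314 and 4590 in Treg KO and between 4006 and 4800 in Treg WT, and at most at 69.5 in Tconv, so the sorted types matched their labels. The 5 Treg markers summed to 19911 to 24758 in Treg KO, against 17790 to 19601 in Treg WT, and to 945 to 4534 in Tconv KO, against 1359 to 1579 in Tconv WT, and the highest Ikzf2 of the Tconv, 3195, was in Tconv KO replicate 1. T cell markers summed to 18252 to 19904 in Treg KO, against 17296 to 18052 in Treg WT, without overlap. B cell markers summed to 218 to 287 in Treg KO, against 151 to 226 in Treg WT. Sums of CD8 T, NK and myeloid markers overlapped between Treg KO and Treg WT, whereas erythroid and platelet markers summed to 8.62 to 16.05 in Treg KO and 21.2 to 27.5 in Treg WT. The part of the T cell, Treg, B cell and erythroid and platelet markers in the Treg results below was not tested. All 8 KO libraries had the RNA of female cells (Xist at least 8644, Ddx3y at 0) and all 7 WT libraries that of male cells (Xist at most 5.52, Ddx3y at least 1154). The sample numbers in the labels also form separate runs, 1 of KO and 1 of WT samples. Sex, the run of sample numbers, depth in Treg and genotype therefore cannot be told apart, and this holds for every KO against WT value below.

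Values are normalized read counts, and fold changes are differences of mean log2(value + 1) ± SE. A gene is said to have passed at a Benjamini-Hochberg adjusted p under 0.05 over the 11314 genes tested in limma, with 1 fit over all 15 libraries. The labels do not say which samples come from separate animals, so p-values measure the spread between these samples. In bulk RNA, fewer cells of a type and less RNA per cell cannot be told apart.

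In Treg KO against Treg WT, 15 of the 48 genes passed, 6 higher and 9 lower. The higher ones were Eif2a, Eif5b, Eif4enif1, Eif3l, Eif3c and Eif4e2, and the lower ones Eif6, Eif3m, Eif4a1, Eif5a, Eif4a3, Eif3f, Eif1, Eif3g and Eif2b4. These changes were small, between -0.75 ± 0.15 for Eif6 and 0.47 ± 0.09 for Eif2a. Of all genes tested, 21.5% passed in this comparison (10.4% higher and 11.1% lower), and the 31.2% of initiation factor genes stands beside that share. Without Treg KO replicate 3, the shallowest library, 6 were higher and 9 lower, 13 of them among the 15. Groups did not overlap for 20 of the 48, 8 higher and 12 lower in Treg KO, where 26.2% of all genes did not overlap (13.2% higher and 13% lower). The median change was -0.02 over the 48 genes, beside -0.00 over all genes. In Tconv KO against Tconv WT, 1 gene passed, Eif4a1, which was lower, with 0.681% of all genes passing (0.292% higher and 0.389% lower).

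**Figure D1:**
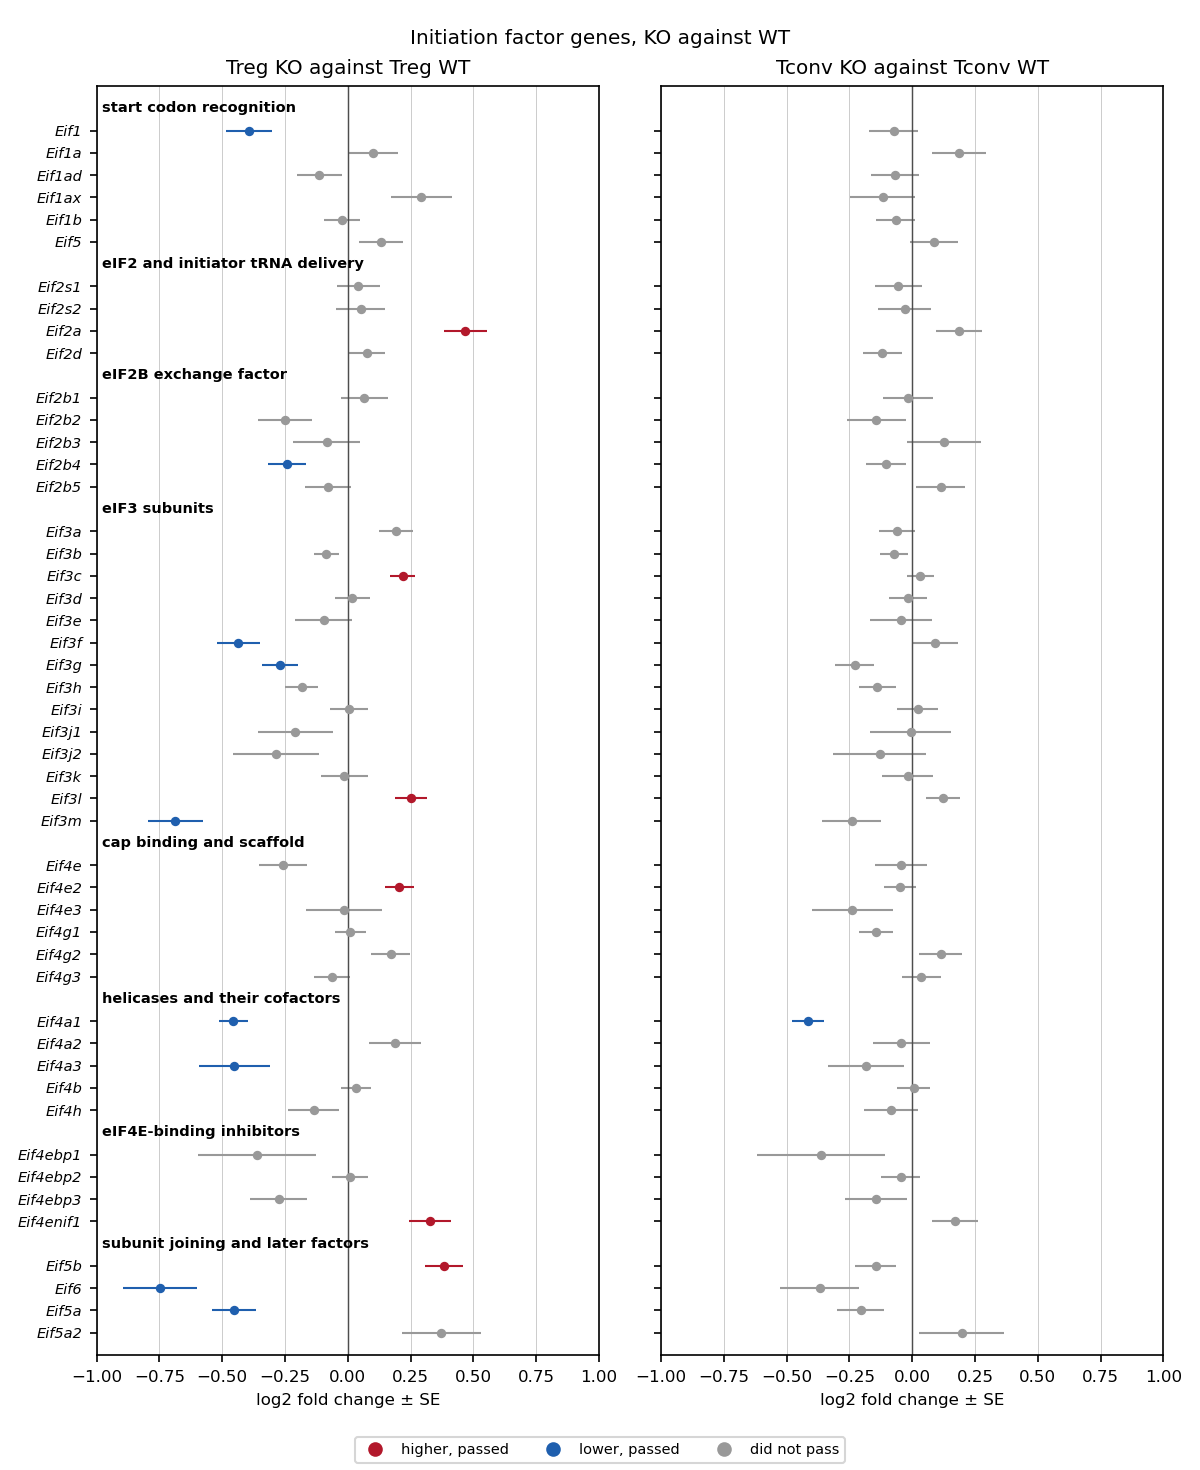
Log2 fold changes ± SE of the 48 initiation factor genes, grouped by role, in Treg KO against Treg WT (left, 4 against 4 libraries) and Tconv KO against Tconv WT (right, 4 against 3). Red and blue points passed in limma: 6 higher and 9 lower on the left, and Eif4a1 alone, lower, on the right.

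The helicase genes held Eif4a1, the 1 gene that passed in both cell types. Eif4a1, on chromosome 11, 69666936 to 69672423 of the GRCm38 assembly (also called mm10), encodes the helicase that unwinds mRNA leaders as part of the cap-binding complex. It had 1066, 1178, 1120.4 and 1083 normalized counts in Treg KO, against 1619, 1564, 1387 and 1537 in Treg WT. Every Treg KO library lay below every Treg WT library, with a log2 fold change of -0.46 ± 0.06 (limma, adjusted p = 0.00019), or 0.729 of the WT level. In Tconv, counts were 1136, 1229.5, 1173 and 1179 in KO, against 1617, 1573 and 1530.5 in WT, again without overlap, with a log2 fold change of -0.42 ± 0.06 (limma, adjusted p = 0.0053). Without Tconv WT replicate 1 the Tconv difference no longer passed (limma, adjusted p = 0.051). The difference between the effect in Treg and that in Tconv was -0.04 ± 0.09 (limma, adjusted p = 0.93), so the effects were not shown to differ.

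The promoters of Eif4a1 and of its paralog Eif4a2 are shown because only the first of this pair passed, and that of Eif3f because it fell in Treg KO too and shares a motif with Eif4a1. Eif3l is 1 of the 6 genes that rose, and of these only it and Eif4e2 hold a motif of the kinds marked below. Eif5b, Eif2a, Eif3c and Eif4enif1 hold neither. Each sequence runs from 250 bases before to 50 bases after a RefSeq start (GRCm38.p6), 5′ to 3′. Capitals mark CACGTG, which reads the same on both strands and is bound by basic helix-loop-helix factors such as Myc and Usf, or CCGGAAGT, read on either strand (as ACTTCCGG on the other), which is bound by Ets factors. The positions are chr11:69672374-69672673, reverse strand, for Eif4a1, chr16:23107218-23107517, forward strand, for Eif4a2, chr7:108934165-108934464, forward strand, for Eif3f and chr15:79074973-79075272, forward strand, for Eif3l.
Eif4a1: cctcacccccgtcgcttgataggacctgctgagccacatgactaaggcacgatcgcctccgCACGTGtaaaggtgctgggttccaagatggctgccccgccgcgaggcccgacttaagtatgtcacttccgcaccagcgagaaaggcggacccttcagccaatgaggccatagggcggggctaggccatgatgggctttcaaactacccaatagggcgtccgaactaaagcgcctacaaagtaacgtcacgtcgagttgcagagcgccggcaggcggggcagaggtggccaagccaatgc
Eif4a2: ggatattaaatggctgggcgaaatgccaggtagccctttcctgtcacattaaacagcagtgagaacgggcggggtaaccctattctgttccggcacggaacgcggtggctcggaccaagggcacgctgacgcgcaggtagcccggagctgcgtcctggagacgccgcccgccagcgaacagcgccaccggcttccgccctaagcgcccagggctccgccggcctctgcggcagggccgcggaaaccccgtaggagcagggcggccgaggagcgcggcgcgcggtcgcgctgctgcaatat
Eif3f: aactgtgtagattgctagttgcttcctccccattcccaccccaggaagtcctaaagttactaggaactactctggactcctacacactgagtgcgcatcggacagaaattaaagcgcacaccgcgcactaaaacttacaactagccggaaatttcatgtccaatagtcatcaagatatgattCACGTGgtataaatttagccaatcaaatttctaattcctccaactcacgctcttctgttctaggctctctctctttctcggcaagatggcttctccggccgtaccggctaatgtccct
Eif3l: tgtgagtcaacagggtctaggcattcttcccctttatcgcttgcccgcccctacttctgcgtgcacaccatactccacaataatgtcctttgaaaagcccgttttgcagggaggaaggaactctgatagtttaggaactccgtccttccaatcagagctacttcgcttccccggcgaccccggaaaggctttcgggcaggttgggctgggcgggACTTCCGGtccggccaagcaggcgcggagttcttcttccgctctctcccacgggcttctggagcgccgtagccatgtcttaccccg
Eif4a1 and Eif3f each hold 1 CACGTG, Eif3l holds 1 ACTTCCGG, and Eif4a2 holds neither.

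Eif1a, Eif3j2 and Eif4ebp3, on chromosome 18, were left out of the motif counts of the 48 genes. Of the rest, 37 had a promoter in the RefSeq table, with 49 promoters among them. A gene with more listed starts had more chances to hold a motif. CACGTG was held in at least 1 promoter by 10 of these (27.0%), beside 12.02% of 8614 tested genes and 8.09% of 27025 genes of any kind. The 2 wider sets kept chromosome 18, so they are not cut in the same way. By direction in Treg KO, it was found in 3 of the 8 lower genes with a promoter (Eif4a1, Eif3f and Eif5a), 0 of the 6 higher genes and 7 of the 23 that did not pass, which include Eif4e and Eif4g1. CCGGAAGT was held by 7 of 37 (18.9%), beside 9.90% of tested genes and 4.31% of all, and by 2 of the 6 higher genes (Eif4e2 and Eif3l), 2 of the 8 lower (Eif5a and Eif2b4) and 3 of the 23 others. CACGTG cannot overlap CCGGAAGT or ACTTCCGG, while the latter 2 can share letters with each other. Genes and not sites were counted, so this does not raise the counts. Eif5a holds neither motif at its most upstream start (chr11:69921909-69922208), and Eif4e no CACGTG at its own (chr3:138525941-138526240). Both were counted through other starts. A match is a run of letters, not a measured binding site.

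Eif4a2, the helicase paralog of Eif4a1, had 3583, 3728, 4867 and 4213 in Treg KO, against 3607, 3575, 3612 and 3490.3 in Treg WT. The groups overlapped and the change of 0.19 ± 0.10 did not pass (limma, adjusted p = 0.21), nor did that of -0.04 ± 0.11 in Tconv. Exons of Eif4a2 overlap those of Rfc4 on the opposite strand, so some of its reads may be of Rfc4. The log2 ratio of Eif4a1 to Eif4a2 was -1.87 ± 0.21 in Treg KO and -1.23 ± 0.10 in Treg WT (SD, n = 4 each), a difference of -0.64, without overlap. The exact permutation test gave p = 0.0286, the smallest that 4 against 4 allow, and 0.129 after adjustment over 36 ratio tests. No ratio passed, and at this smallest p none could unless most of the 36 reached it. Eif4a3, a relative that works in the exon junction complex (chromosome 11, 119288363 to 119300089), had 384, 382, 252 and 349 in Treg KO, against 455, 437, 473 and 482 in Treg WT, and Treg KO replicate 3 was the lowest. Its log2 fold change of -0.45 ± 0.14 (limma, adjusted p = 0.034) no longer passed without Treg KO replicate 3 (limma, adjusted p = 0.094) or without any 1 of the 4 Treg WT replicates (0.054 to 0.083). It also fell short with the GC trend (0.089) or length trend (0.095) removed and with thinned reads (0.092). The helicase cofactors Eif4b and Eif4h changed by 0.03 ± 0.06 and -0.14 ± 0.10 and did not pass.

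**Figure D2:**
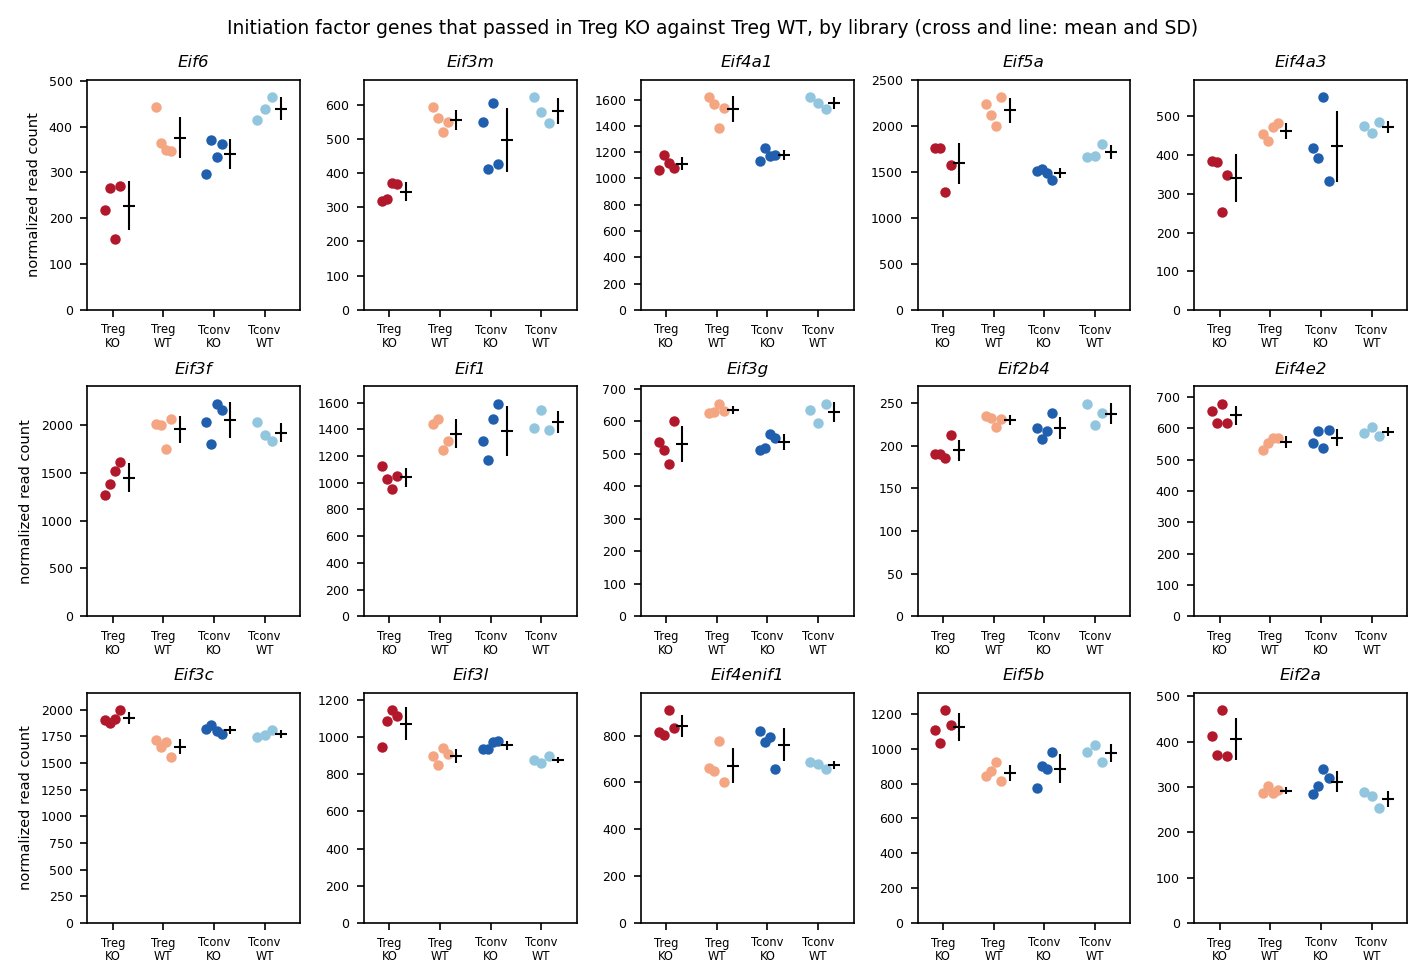
Normalized read counts in each library for the 15 genes that passed in Treg KO against Treg WT, ordered from the largest fall (Eif6) to the largest rise (Eif2a), with a cross and line for the mean and SD. Treg KO and Treg WT do not overlap in any panel, whereas Tconv KO and Tconv WT are apart for Eif4a1, Eif3g, Eif5a, Eif6 and Eif3l.

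Among genes of start codon recognition, 1 of 6 passed in Treg KO. Eif1, which keeps the scanning ribosome in an open state until a start codon is met (chromosome 11, 100319885 to 100322096), had 1127, 1031, 952 and 1052 in Treg KO, against 1438, 1473, 1248 and 1311 in Treg WT. The groups did not overlap, with a log2 fold change of -0.39 ± 0.09 (limma, adjusted p = 0.0085). With the trend of values on transcript length removed it fell short of the threshold (limma, adjusted p = 0.069). Its paralog Eif1b had 267, 284, 278 and 249 in Treg KO, against 282, 262, 288 and 263 in Treg WT, which overlapped. In Tconv, Eif1 lay between 1168 and 1592 in KO and 1397 and 1546 in WT. Eif5, which makes eIF2 spend its GTP at the start codon, had 1951, 2056, 2762 and 2166 in Treg KO, against 2063, 2077, 1979 and 1966 in Treg WT. It did not pass (0.13 ± 0.09), and its highest value, in Treg KO replicate 3, stood over all the others. Eif1a and the X-linked Eif1ax, which both encode eIF1A, changed by 0.10 ± 0.10 and 0.29 ± 0.12 and did not pass.

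The genes of eIF2 and its recharging factor eIF2B were mostly level. Eif2s1, the alpha subunit that stress kinases phosphorylate, had 424, 419, 469.7 and 415 in Treg KO, against 413, 430.4, 415 and 417 in Treg WT. The ranges overlapped, and its change of 0.04 ± 0.08 and that of the beta subunit Eif2s2, 0.05 ± 0.10, did not pass. The gamma subunit is encoded by the X-linked Eif2s3x and the Y-linked Eif2s3y, which are not counted among the 48. Eif2s3x lay between 1221 and 1396 in Treg KO and between 875 and 917 in Treg WT, and Eif2s3y was at 0 in every KO library and between 483 and 634 in Treg WT. Their sum lay between 1221 and 1396 in Treg KO and between 1366 and 1518 in Treg WT, ranges that overlap, and between 1276 and 1445 in Tconv KO and between 1469 and 1542 in Tconv WT, which do not.

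Eif2a encodes eIF2A, a separate factor that is no part of eIF2 and is linked to initiation away from AUG codons (chromosome 3, 58525821 to 58557501). It had 413, 371, 469.7 and 369 in Treg KO, against 287, 301, 286 and 293 in Treg WT. All Treg KO libraries were higher, with a log2 fold change of 0.47 ± 0.09 (limma, adjusted p = 0.0023), or 1.38-fold. In Tconv it lay between 285 and 339 in KO and 254 and 288 in WT, which overlapped. Its exons overlap those of Serp1 on the opposite strand, and the labels do not say that strand was kept, so reads of the pair cannot be told apart. Of the 5 eIF2B genes only Eif2b4, the delta subunit, passed, with 190.0, 190.4, 185 and 213 in Treg KO, against 234, 232, 222 and 231 in Treg WT. Its log2 fold change of -0.24 ± 0.07 (limma, adjusted p = 0.032) lost its call under the most settings of the 15. With the trend on GC content removed it was 0.02 (adjusted p = 0.91), and without any 1 of 6 Treg libraries (all but Treg KO replicate 4 and Treg WT replicate 3) the adjusted p was 0.051 to 0.082. It was also lost in DESeq2 (0.062), with the length trend removed (0.13), with a fit of only the Treg groups (0.077) and with thinned reads (0.15). Eif2b4 shares exons with Snx17 on the other strand.

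Genes of the eIF3 complex moved both ways. Of the 14, 2 passed higher (Eif3c and Eif3l) and 3 lower (Eif3f, Eif3m and Eif3g) in Treg KO, and 9 did not pass. Eif3m, a core subunit (chromosome 2, 104999656 to 105017080), had 318, 324, 371 and 368 in Treg KO, against 591, 561, 520.0 and 548 in Treg WT. The groups were far apart, with a log2 fold change of -0.69 ± 0.11 (limma, adjusted p = 0.00098), or 0.621 of the WT level. In Tconv KO its values were 549, 412, 603 and 425, against 622, 578 and 545 in Tconv WT, so Tconv KO libraries fell into a lower and a higher pair and the groups overlapped. Eif3m overlaps Ccdc73 on the opposite strand.

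Eif3f, another core subunit (chromosome 7, 108934417 to 108942951), had 1271, 1382, 1515 and 1613 in Treg KO, against 2008, 1997, 1747 and 2055 in Treg WT. No Treg KO library reached the lowest Treg WT library, with a log2 fold change of -0.44 ± 0.09 (limma, adjusted p = 0.0036). Tconv counts were 2022, 1796, 2219.8 and 2149 in KO, against 2032, 1893 and 1829 in WT, and overlapped. The effect in Treg minus that in Tconv was -0.53 ± 0.13, which did not pass in limma (adjusted p = 0.17) and passed in DESeq2 (adjusted p = 0.016).

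Eif3g, an RNA-binding subunit, had 537, 512, 468 and 600.5 in Treg KO, against 627, 628, 655 and 632 in Treg WT, without overlap. Its log2 fold change of -0.27 ± 0.07 (limma, adjusted p = 0.017) did not hold with the GC trend removed (-0.06, adjusted p = 0.58) or the length trend removed (-0.07, adjusted p = 0.47), or with a fit of only the Treg groups (0.054). In Tconv it was also lower without overlap, between 512 and 562 in KO and 594 and 654 in WT, and did not pass (-0.23 ± 0.08, adjusted p = 0.23). Eif3c, a scaffold of the core (chromosome 7, 126546455 to 126566411), had 1908, 1875, 1911 and 1998 in Treg KO, against 1713, 1649.8, 1699 and 1553 in Treg WT. This was a small difference with little spread, a log2 fold change of 0.22 ± 0.05 (limma, adjusted p = 0.0085). Eif3l, on the rim of the complex (chromosome 15, 79075179 to 79094405), had 946, 1084, 1146 and 1115 in Treg KO, against 899, 849, 939 and 910.5 in Treg WT. Treg KO replicate 1 was only just above the highest Treg WT library, and the log2 fold change of 0.25 ± 0.06 (limma, adjusted p = 0.012) fell short when only the 2 Treg groups were fitted (0.053). The largest subunit, Eif3a, was also higher without overlap, between 2869.5 and 3432 in Treg KO and 2554 and 2804 in Treg WT, and just missed the threshold (0.19 ± 0.07, adjusted p = 0.052). Eif3h was lower without overlap (-0.18 ± 0.07, adjusted p = 0.061). The copies Eif3j1 and Eif3j2, which may share reads, are uncertain, and they and the remaining 5 subunits lay between -0.28 ± 0.17 and 0.02 ± 0.07.

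At the cap, Eif4e itself had 281, 278, 312 and 265 in Treg KO, against 334, 371, 332 and 322 in Treg WT. The groups did not overlap, yet the change of -0.26 ± 0.10 did not pass (limma, adjusted p = 0.066). Eif4e2, a relative that binds the cap and acts as a repressor (chromosome 1, 87213914 to 87240488), had 654, 616, 679 and 615 in Treg KO, against 529.7, 554, 569 and 570.0 in Treg WT. It was higher in every Treg KO library, with a log2 fold change of 0.21 ± 0.06 (limma, adjusted p = 0.022), and no longer passed without Treg WT replicate 1 (0.074) or replicate 2 (just over the threshold), when the fit held only the Treg libraries (0.064) or reads were thinned (0.2). The log2 ratio of Eif4e to Eif4e2 was -1.17 ± 0.05 in Treg KO and -0.71 ± 0.11 in Treg WT (SD, n = 4 each), without overlap (exact permutation p = 0.0286, adjusted 0.129). The scaffold Eif4g1 had 2817, 3099, 2629 and 2840.5 in Treg KO, against 2875, 2767, 2826 and 2819 in Treg WT, with a change of 0.01 ± 0.06. Eif4g3, a second scaffold, lay between 1744 and 1964 in Treg KO and 1753 and 2077 in Treg WT. Eif4g2, which lacks the eIF4E-binding part, lay between 6739.7 and 8362 in Treg KO and 5962 and 6776 in Treg WT. All 3 pairs of ranges overlapped and none passed.

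Of the genes that restrain eIF4E, Eif4enif1, a carrier that takes eIF4E to the nucleus and to P-bodies (chromosome 11, 3202392 to 3244588), had 815, 804, 909 and 832 in Treg KO, against 661, 648, 778 and 600.2 in Treg WT. Treg KO was higher throughout, with a log2 fold change of 0.33 ± 0.08 (limma, adjusted p = 0.014), which ended just over the threshold without Treg WT replicate 4 and at 0.081 with thinned reads. The 4E-binding proteins Eif4ebp1, Eif4ebp2 and Eif4ebp3 changed by -0.36 ± 0.24, 0.01 ± 0.07 and -0.28 ± 0.11 and did not pass. Eif4ebp3, which shares exons with AC115631.1 on the same strand, was lower without overlap. Eif4ebp1 rested on 100 reads over the 4 Treg KO libraries and 273 over the 4 Treg WT libraries, the lowest counts of the family.

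Among factors that act at and after subunit joining, 3 of 4 passed. Eif6, which keeps the large subunit from joining too early (chromosome 2, 155819832 to 155826925), had 219, 267, 155 and 270.1 in Treg KO, against 443, 365, 348 and 348 in Treg WT. The groups stood apart, with a log2 fold change of -0.75 ± 0.15 (limma, adjusted p = 0.0035), or 0.596 of the WT level, the largest fall of the 48. In Tconv its values were 297, 370.3, 333 and 362 in KO, against 415, 438 and 465 in WT, also without overlap, and the change of -0.37 ± 0.16 did not pass (adjusted p = 0.37). Eif5a, which helps ribosomes over hard stretches and carries the amino acid hypusine (chromosome 11, 69916714 to 69921958), had 1764, 1760.1, 1288 and 1583 in Treg KO, against 2245, 2128, 2004 and 2318 in Treg WT. The lowest was again Treg KO replicate 3, and the groups did not overlap, with a log2 fold change of -0.45 ± 0.09 (limma, adjusted p = 0.0033). Its paralog Eif5a2 had 123, 121, 166 and 112 in Treg KO, against 106, 104, 105 and 85.1 in Treg WT, higher without overlap but not past the threshold (0.37 ± 0.16, adjusted p = 0.1). The log2 ratio of Eif5a to Eif5a2 was 3.61 ± 0.44 in Treg KO and 4.43 ± 0.22 in Treg WT (SD, n = 4 each; exact permutation p = 0.0286, adjusted 0.129).

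Eif5b, the GTPase that joins the large subunit (chromosome 1, 37998010 to 38055579), had 1109.8, 1032, 1222 and 1134 in Treg KO, against 841, 869.7, 924 and 816 in Treg WT. All Treg KO libraries were higher, with a log2 fold change of 0.38 ± 0.08 (limma, adjusted p = 0.0037). Tconv KO had 776, 899, 881 and 980.4, against 982, 1023 and 922 in Tconv WT, where the difference pointed the other way and did not pass (-0.15 ± 0.08, adjusted p = 0.49). The effect in Treg minus that in Tconv was 0.53 ± 0.11, which did not pass in limma (adjusted p = 0.098) and passed in DESeq2 (adjusted p = 0.0047), with limma's library weights (0.038) and without Tconv KO replicate 4 (0.049). In limma 0 of the 48 genes passed for this difference of effects, where 0.15% of all genes passed (0.0354% higher and 0.115% lower). The edgeR test called 0 and DESeq2 called 2, Eif5b and Eif3f. At an unadjusted p under 0.05 in limma, 6 of the 48 were higher and 3 lower. The share of all genes at that unadjusted threshold was not counted. Rev1 overlaps Eif5b on the opposite strand.

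Of the 15 genes, Eif4a1, Eif3m, Eif5a, Eif6, Eif3f, Eif2a, Eif5b and Eif3c kept their direction and passed in Treg KO under each of the 13 other ways of processing and each of the 15 fits without 1 library. In Tconv, edgeR and DESeq2 also called Eif4a1 alone. At an unadjusted p under 0.05, 0 genes were higher and 5 lower in Tconv KO in limma (Eif4a1, Eif3g, Eif6, Eif5a and Eif4g1). The share of all genes at that unadjusted threshold was not counted here either. The 48 genes had a median change of -0.05 in Tconv KO, beside 0.00 over all genes. Tconv KO and Tconv WT did not overlap for 3 genes that were higher and 7 that were lower, where 16.3% of all genes did not overlap (7.79% higher and 8.54% lower).

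The genes that fell in Treg KO were short and rich in GC beside the others. Their transcripts had a median GC content of 54.1% and a median length of 1500 bases, against 49.5% and 3428 bases in the 6 that rose and 49.8% and 2726 bases in the 33 that did not pass. The same trend ran through all genes of this comparison, cut by GC content or length into 5 bins of equal size. The median change was 0.20 in the lowest GC bin and -0.32 in the highest, and -0.17 in the shortest bin and 0.12 in the longest. In Tconv KO against WT the trend had the same direction, 0.10 and -0.15 by GC content. With the GC trend removed from each library, 6 genes passed higher and 8 lower in Treg KO, 12 of them among the 15. With the length trend removed, 7 passed higher and 6 lower, 11 of them among the 15. Thinning every library to the shallowest depth left 4 higher and 7 lower, all among the 15.

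**Figure D3:**
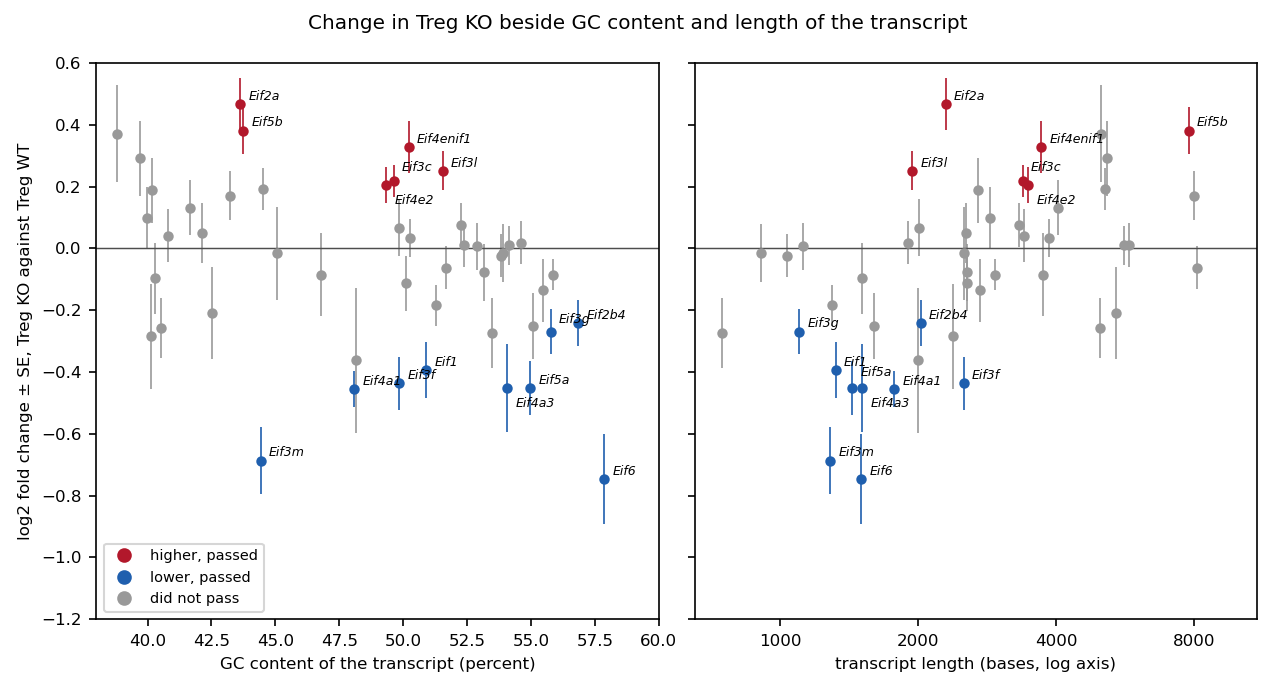
Log2 fold change ± SE in Treg KO against Treg WT for the 48 initiation factor genes, beside the GC content of the longest coding transcript in percent (left) and its length in bases on a log axis (right). The 9 genes that passed lower lie between 1101 and 2514 bases, and the 6 that passed higher between 1942 and 7797.

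Between cell types, 11 genes passed in Treg KO against Tconv KO, 5 higher and 6 lower (31.4% of all genes passed, 15.8% higher and 15.6% lower), and 5 in Treg WT against Tconv WT, 3 higher and 2 lower (18.1% of all genes, 10% higher and 8.06% lower). Treg KO and Tconv KO did not overlap for 6 genes higher and 8 lower in Treg, where 24.1% of all genes did not overlap (12.2% higher and 11.9% lower). Treg WT and Tconv WT did not overlap for 5 higher and 10 lower, where 41.1% of all genes did not (20.6% higher and 20.5% lower). The first shares its Treg KO libraries with the comparison above and the second its Treg WT libraries, so their values are given side by side only. Eif4e3, an atypical cap-binding relative of eIF4E (chromosome 6, 99625135 to 99666771), had 232, 203, 248 and 199 in Treg KO, against 82.2, 77.5, 120.3 and 136 in Tconv KO. It had 228, 223, 232 and 206 in Treg WT, against 119, 118 and 121 in Tconv WT. Treg lay above Tconv in both genotypes without overlap, with a log2 fold change of 1.11 ± 0.15 (limma, adjusted p = 5.3e-05) in KO and a log2 fold change of 0.89 ± 0.16 (limma, adjusted p = 0.0011) in WT. It shares exons with Gm20696 on the same strand. These were the largest cell-type differences of the 48, and leaving out any 1 library did not end either call.

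Eif4ebp1 was higher and Eif4ebp2 lower in Treg than in Tconv. The third 4E-binding protein gene, Eif4ebp3, did not pass, with -0.22 ± 0.11 in KO (limma, adjusted p = 0.15) and -0.09 ± 0.12 in WT (0.68). Eif4ebp1 had 26.1, 40.0, 40.9 and 40.1 in Treg KO, against 22.7, 12.5, 23.7 and 27.2 in Tconv KO. In WT it had 53.5, 38.6, 50.6 and 46.1 in Treg, against 22.6, 30.0 and 28.9 in Tconv. The KO values overlap, since Treg KO replicate 1 lay under the highest Tconv KO library, and the WT values do not overlap, with a log2 fold change of 0.78 ± 0.24 (limma, adjusted p = 0.02) in KO and a log2 fold change of 0.77 ± 0.25 (limma, adjusted p = 0.046) in WT. The first no longer passed without Tconv KO replicate 2 (0.063), and the second without any 1 of 9 libraries (0.052 to 0.19). Those 9 were Treg KO replicates 2 and 4, Treg WT replicates 1, 3 and 4, Tconv KO replicate 3 and the 3 Tconv WT replicates. With reads thinned to 1 depth the change was 0.60 in KO (limma, adjusted p = 0.2) and 0.37 in WT (0.57). Quantile scaling (0.087 in KO and 0.17 in WT), a fit of only the KO groups (0.098), and in WT no filter (0.08) or a pseudocount of 0.1 (0.051) ended the calls too.

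Eif4ebp2 had 815, 997, 866 and 892 in Treg KO, against 954, 1053, 1098 and 1122 in Tconv KO. In WT it had 894, 852, 935 and 858 in Treg, against 1094, 1033 and 1144 in Tconv. It was lower in Treg, with overlap in KO and none in WT, with a log2 fold change of -0.24 ± 0.07 (limma, adjusted p = 0.017) in KO and a log2 fold change of -0.30 ± 0.08 (limma, adjusted p = 0.012) in WT. The KO value ended its call with thinned reads (0.054), with a fit of only the KO groups (0.079), and without Treg KO replicate 1 (0.054) or Tconv KO replicate 4 (0.053), and the WT value without Tconv WT replicate 3 (0.065). The log2 ratio of Eif4ebp1 to Eif4ebp2 was -4.58 ± 0.24 in Treg KO and -5.60 ± 0.46 in Tconv KO (SD, n = 4 each), and -4.21 ± 0.16 in Treg WT (n = 4) and -5.28 ± 0.24 in Tconv WT (n = 3). Neither pair overlapped, and the exact permutation test gave p = 0.0286 for both, adjusted 0.129.

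**Figure D4:**
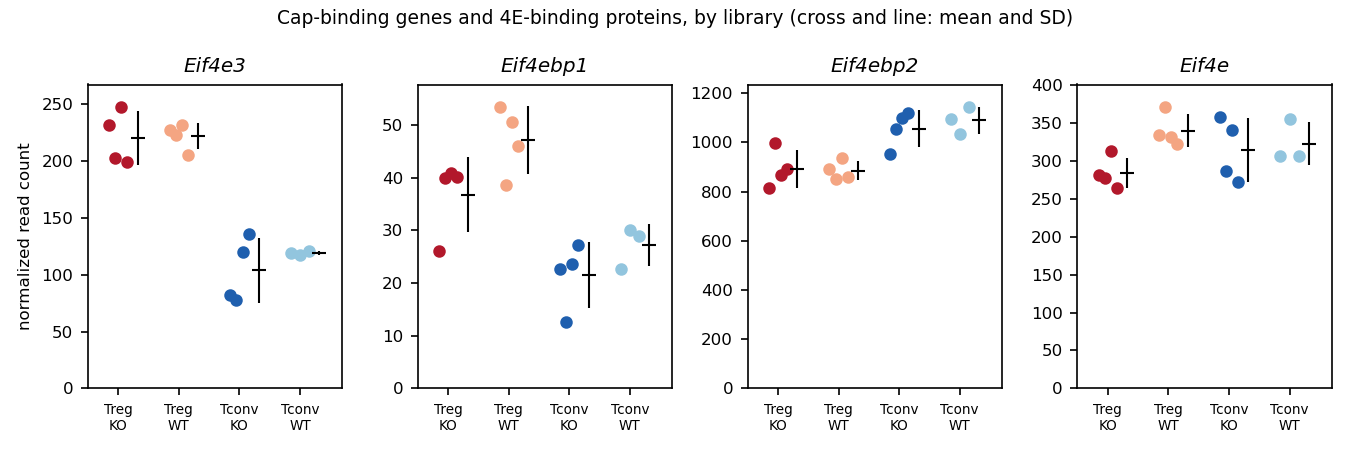
Normalized read counts in each library of Eif4e3, Eif4ebp1, Eif4ebp2 and Eif4e, with a cross and line for the mean and SD of each group. Eif4e3 lies between 199 and 248 in Treg and between 77.5 and 136 in Tconv, whereas Eif4e overlaps between the cell types.

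In WT, Eif5a was higher and Eif4g1 lower in Treg. Eif5a had 2245, 2128, 2004 and 2318 in Treg WT, against 1664, 1679 and 1807 in Tconv WT, without overlap, with a log2 fold change of 0.34 ± 0.09 (limma, adjusted p = 0.019). In KO the cell types overlapped, since Treg KO lay lower, and Tconv KO had 1512, 1534, 1494 and 1412. Eif4g1 had 2875, 2767, 2826 and 2819 in Treg WT, against 3304, 3204 and 3422 in Tconv WT, also apart, with a log2 fold change of -0.23 ± 0.07 (limma, adjusted p = 0.026). Eif5a no longer passed without Treg WT replicate 1 or 4 or Tconv WT replicate 1 or 2 (0.052 to 0.083). With thinned reads its adjusted p was 0.062. Eif4g1 was lost without Treg WT replicate 2, 3 or 4 or Tconv WT replicate 1 or 3 (0.052 to 0.11), with quantile scaling (-0.13, adjusted p = 0.21) and with the length trend removed (0.058).

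In KO, the other genes that passed between the cell types include several already described. Eif2a (0.38 ± 0.09), Eif5b (0.35 ± 0.08) and Eif4e2 (0.17 ± 0.06) were higher in Treg KO than in Tconv KO. Eif6 (-0.61 ± 0.15), Eif3m (-0.51 ± 0.11), Eif3f (-0.50 ± 0.09) and Eif1 (-0.41 ± 0.09) were lower. Eif2b5, the catalytic subunit of eIF2B, passed here alone, with 344, 273, 256 and 326 in Treg KO, against 372, 369, 386 and 407 in Tconv KO. The groups did not overlap, with a log2 fold change of -0.36 ± 0.09 (limma, adjusted p = 0.0066). Eif4e2 no longer passed without Treg KO replicate 1 or 3 or Tconv KO replicate 1 or 3 (0.064 to 0.099). It also fell short in edgeR (0.057) and DESeq2 (0.063), with library weights (0.13), with a fit of only the KO groups (0.13) and with thinned reads (0.14). Tconv KO replicate 1 had the highest Ikzf2 and the highest sum of Treg markers of its group, but not the highest Foxp3 or Il2ra. Leaving it out left 5 higher and 7 lower, 10 of them among the 11. Without Treg KO replicate 3, the shallowest library, 6 were higher and 10 lower, again with 10 of the 11. Over all comparisons 20 of the 48 genes passed at least once and 28 never did.

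Levels per length are set side by side within each group. Eif4a2 was highest, at 1513 normalized counts per kb of transcript in Treg KO, 1319 in Treg WT, 1581 in Tconv KO and 1620.5 in Tconv WT. It was followed by Eif3h, Eif5a, Eif3k and Eif1 by mean over all libraries. The lowest was Eif4ebp1, at 18.4, 23.6, 10.8 and 13.6 in the same groups, with Eif2b3 and Eif5a2 just above it. The cap-binding Eif4e, at 56.9 per kb in Treg KO and 68.1 in Treg WT, stood far under the scaffold Eif4g1, at 505 and 501, and the helicase Eif4a1, at 627 and 861. Among the constitutive eIF3 subunits, per kb in Treg KO, levels ran from 269 for Eif3m to 1215 for Eif3h.

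**Figure D5:**
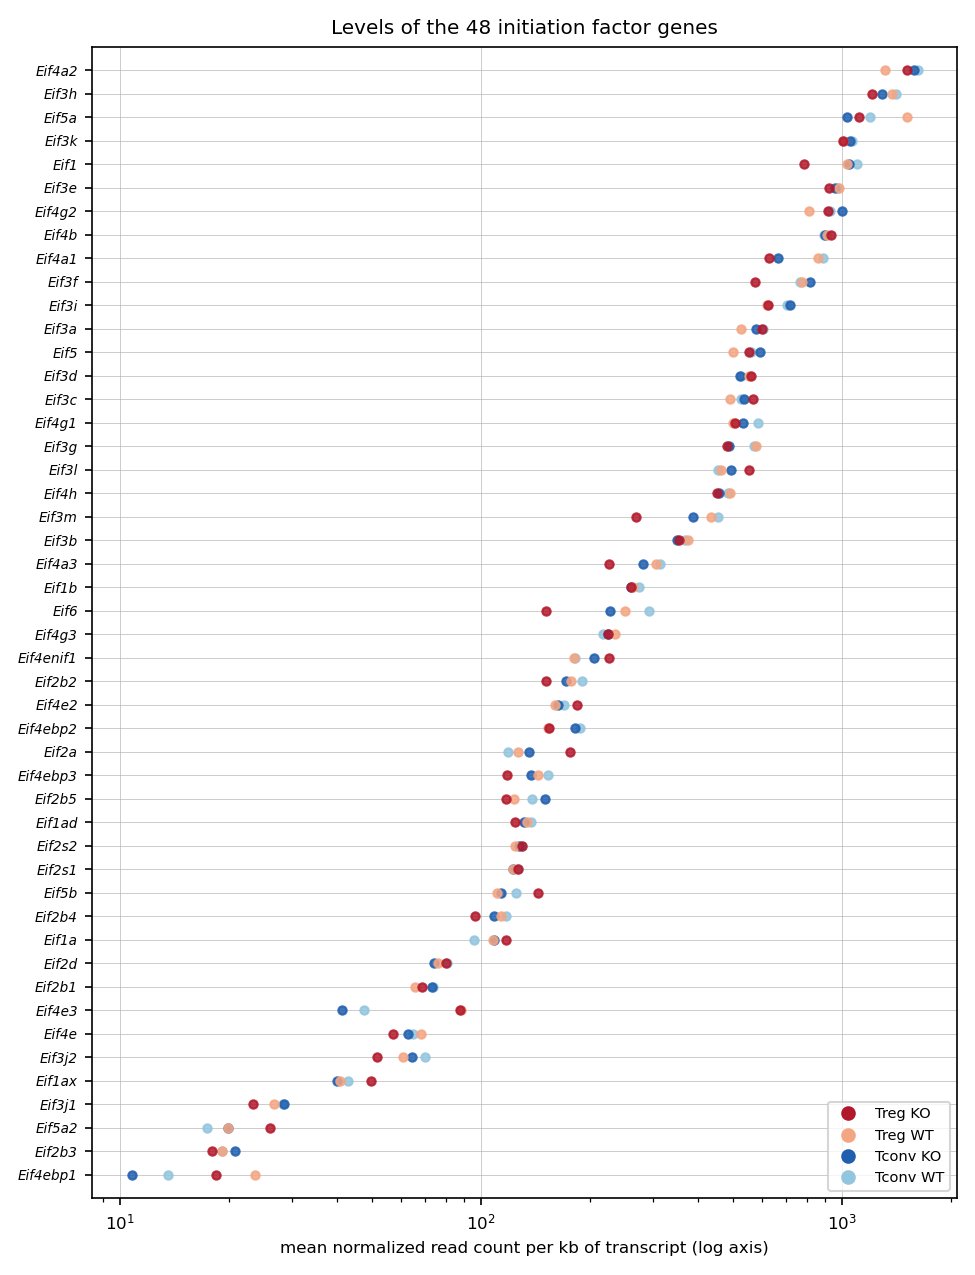
Mean normalized read count per kb of transcript of the 48 genes in each group, on a log axis, ordered by the mean over all libraries. Group means of 1 gene lie close together, except for Eif4e3 and Eif4ebp1, where Treg stands above Tconv, and Eif6 and Eif3m, where Treg KO stands lowest.

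Other genes of the pathway were counted from lists of regulators, partners, elongation and termination factors, and ribosomal proteins. Of 32 regulators tested, 5 were higher and 6 lower in Treg KO, where 21.5% of all genes passed (10.4% higher and 11.1% lower). In Tconv KO 0 of them passed in limma, where 0.681% of all genes passed. These shares stand beside the counts of the other lists too. At an unadjusted p under 0.05, 1 regulator was higher and 2 lower in Tconv KO, with no count over all genes at that threshold. Larp1, which holds back mRNAs of the translation machinery, averaged 1616 ± 101 in Treg KO and 2019 ± 129 in Treg WT (SD, n = 4 each), a log2 fold change of -0.32 ± 0.07 (limma, adjusted p = 0.0072). Gigyf2, a partner of eIF4E2 in repression, averaged 945 ± 91.1 and 749 ± 48.2 in the same groups, a log2 fold change of 0.33 ± 0.07 (limma, adjusted p = 0.0072). Gigyf1, its paralog, averaged 983 ± 238 in Treg KO and 1368 ± 50.6 in Treg WT, the other way, a log2 fold change of -0.51 ± 0.14 (limma, adjusted p = 0.021). The stress-response genes of the list did not move together. Trib3 (-1.38 ± 0.28) and Ddit3 (-0.43 ± 0.10) were lower, and Trib3 was low, averaging 7.20 in Treg KO and 21.2 in Treg WT. Ppp1r15b (0.21 ± 0.07), Impact (0.27 ± 0.09) and Eif2ak3, a kinase of eIF2 (0.33 ± 0.11), were higher. Atf4 (0.03 ± 0.07) and Ppp1r15a (0.18 ± 0.23) did not pass. Mtor (-0.14 ± 0.10) and Pdcd4, an inhibitor of eIF4A (-0.10 ± 0.12), did not pass.

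Of 13 partners, 4 were higher and 0 lower in Treg KO. They were the helicase Ddx3x, the recycling factor Abce1 (0.33 ± 0.09), the nuclear cap-binding Ncbp2 (0.31 ± 0.10) and Mcts2 (0.67 ± 0.22). Ddx3x is X-linked and averaged 2820.2 ± 415 in Treg KO and 2079 ± 87.6 in Treg WT (SD, n = 4 each). Its Y-linked counterpart Ddx3y, not on the list, was at 0 in Treg KO and between 1154 and 1505 in Treg WT. Of 13 elongation and termination genes, 2 were higher (Gspt1 and Etf1, the release factors) and 4 lower, led by Eef1g, at 1649 ± 91.6 in Treg KO and 2793 ± 188 in Treg WT, a log2 fold change of -0.76 ± 0.09 (limma, adjusted p = 4.7e-05). Eef1g was also the 1 gene of these lists that passed in Tconv KO, apart from ribosomal protein genes, with a log2 fold change of -0.43 ± 0.09 (adjusted p = 0.047). Eef1a1, Eef2 and the poly(A)-binding Pabpc1 did not pass in either cell type. Of 79 ribosomal protein genes, 58 were lower and 1 higher in Treg KO, with a median of -0.72, and 16 lower and 0 higher in Tconv KO, with a median of -0.46. Many of those have near-identical copies elsewhere in the genome, so their values are uncertain.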

How the data were processed

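RNA of sorted splenic T cells was extracted with Qiazol and made into libraries from 10 ng with a TruSeq RNA kit, per the labels' protocols. Reads were aligned with TopHat to mm10, per the submitters' processing notes, and its version, the annotation and the counting are not stated there. The authors deposited 1 table of normalized signal, which is read counts divided by a size factor, for 17594 genes and 15 libraries. Dividing each column by its smallest step gave whole reads for 100% of values (tolerance 0.001), so read totals are known, and more deeply sequenced libraries have less counting error.

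The main test was limma 3.58.1 (R 4.3.3) on log2(value + 1), with the 4 groups as means, a mean-dependent variance and a gene kept where 3 or more libraries reached a value of 10. Fold changes on this scale understate those of low genes. The Benjamini-Hochberg adjusted p was taken over all 11314 genes. Count tests on the recovered reads (edgeR 4.0.16 with TMM scaling, DESeq2 1.42.0) were alternatives. So were other pseudocounts (8 and 0.1), no filter or one at a mean value of 50, TMM or quantile scaling, only the groups compared, library weights, reads thinned to 1 depth, GC or length trends removed, and leaving out each library. Ratios of paralogs were tested by exact two-sided permutation.

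Gene positions, GC content and length came from GENCODE vM21 by symbol (16682 current and 695 older symbols matched, 217 not), and promoters from RefSeq. Gene roles were assigned by hand. Every initiation factor gene could be named. Per-library values were given for those past the threshold in Treg KO against WT. They were also given for up to 4 with the smallest p in each other comparison. Genes of a paralog pair and a few set central factors had them too. Of other pathway genes, up to 4 a direction that passed were named from each list, with a few that did not pass. These were not always those with the smallest p. The regulators Mknk2 (-0.37 ± 0.10, limma, adjusted p = 0.017) and Paip2 (0.22 ± 0.06, adjusted p = 0.025) passed in Treg KO against Treg WT and were left out. The genes, lists and tests were chosen with earlier results of these data known. Replicates were numbered in record order and pair no samples.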

Additional observations from a re-analysis of the deposited data

Results flagged for a closer look

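Among 144 sets of 4 values (48 genes in the 3 groups of 4 libraries), 1 library stood far from the other 3 of its group in 6 sets, and chance gives this in about 1 in 20 groups. Eif2s1 was at 469.7 in Treg KO replicate 3, against 415 to 424 in the other 3. Eif3a was at 3207 in Tconv KO replicate 4, against 2866 to 2912. Eif3j2 was at 169.7 in Treg WT replicate 2, against 136 to 138. Eif4ebp1 was at 26.1 in Treg KO replicate 1, against 40.0 to 40.9. Eif4ebp3 was at 124 in Treg WT replicate 4, against 99.3 to 103, and Eif5a2 was at 85.1 in the same library, against 104 to 106. None of these 6 genes passed in Treg KO against Treg WT, and Eif4ebp1 is the 1 whose cell-type calls include the value that stood apart.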

How the results depend on the processing

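In Treg KO against Treg WT, without each library in turn, 5 to 7 initiation factor genes were higher (6 with all libraries) and 7 to 10 lower (9 with all). Eif2b4 reversed with the GC trend removed (0.020, adjusted p = 0.91). Thinned reads ended the calls of Eif2b4, Eif4a3, Eif4e2 and Eif4enif1, the GC trend those of Eif2b4, Eif3g and Eif4a3, the length trend those of Eif1, Eif2b4, Eif3g and Eif4a3, a fit of only the groups compared those of Eif2b4, Eif3g, Eif3l and Eif4e2, and DESeq2 that of Eif2b4. In Tconv, 0 to 1 gene was lower without 1 library (Eif4a1, lost without Tconv WT replicate 1), and 0 were higher. For the difference of effects, DESeq2 called 1 higher and 1 lower and library weights 1 higher, and 0 to 1 was higher without 1 library, beside 0 in limma. In Treg KO against Tconv KO, 3 genes were higher when only the groups compared were fitted or reads were thinned, and 11 lower with the GC trend removed. Without 1 library 4 to 6 were higher and 5 to 10 lower, with 10 lower without Treg KO replicate 3. In Treg WT against Tconv WT, thinning left 1 higher. Of those lower, 4 passed in DESeq2, 1 with quantile scaling, 7 with only the groups compared, 9 with library weights and 5 with the GC trend removed, and without 1 library 1 to 3 were higher and 0 to 4 lower. Over all genes, those passing in Treg KO against Treg WT numbered 2431, 1557 with the GC trend removed and 1393 to 2743 without 1 library (lowest without Treg WT replicate 1, then 1498 where replicate 4 was left out). In Tconv the 77 became 236 in DESeq2, 32 with only the groups compared, 307 with library weights, 51 with thinned reads, 45 with the length trend removed and 22 to 249 without 1 library. The 17 for the difference of effects became 91, 56 and 38 in DESeq2, with library weights and with the GC trend removed, and 3 to 23 without 1 library. For Treg against Tconv, the 3558 in KO became 2042 with only the groups compared (2907 to 3897 without 1 library), and the 2046 in WT became 3990 and 4330 with only the groups compared and with library weights (1407 to 2524 without 1 library). The causes of these changes were not tested. The ratio tests were too small in number of libraries to show stability. Depth limits the low genes, above all Eif4ebp1 (85 reads over the Tconv KO libraries), which was not tested at a mean of at least 50. The samples' numbers do not repeat across groups. Neighbouring numbers join Treg and Tconv samples, but the labels do not say that they mark an animal, and a fit with them as a block was not run.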
